A study of Mus musculus with 2 samples.

Results

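The microRNAs described here are 7 genes associated with microglia and other leukocytes, namely Mir142, Mir146, Mir146b, Mir150, Mir155, Mir223 and Mir342. They were chosen by name from the 2202 microRNA genes that were counted, with symbols taken from the GENCODE M21 annotation, in which the miR-142 gene is listed as Mir142. Mir342 is kept apart from the other 6, since it lies in an intron of Evl, a protein-coding gene of the Ena/VASP family of actin regulators, and is known from neural tissue as well as from leukocytes. The tissue was left cerebral cortex of male B6CASTF1/J mice, the first-generation cross of C57BL/6 and CAST/Ei parents, at 14 days of age. Small RNA was sequenced in 2 libraries, biological replicates 1 and 2 of a single group, with no treatment, mutation or second condition in the labels. Both libraries carry 1 donor label, and a label of each mentions 3 males without saying whether tissue was pooled. The spread between the libraries may therefore be technical, and there are no conditions to compare.

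A microRNA gene is transcribed as a hairpin from which enzymes cut short mature forms, one from each arm (5p and 3p). A mature form guides Argonaute proteins to messenger RNAs chiefly through its seed, bases 2 to 8, so forms with the same seed share many targets. Microglia are the resident macrophages of the brain, and vessels and meninges add further leukocytes. miR-142 is found throughout the blood cell lineages, miR-223 is typical of granulocytes and other myeloid cells, and miR-150 is typical of mature lymphocytes. miR-155 is induced in activated immune cells, and the miR-146 pair acts in a negative feedback on Toll-like receptor and NF-κB signalling.

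The mature forms annotated by RefSeq (GRCm38.p6) for the 7 genes are shown because the seeds decide which members could act on the same targets. The sequence table held 13 mature forms, and those that the results turn on are given 5′ to 3′ with the seed in capitals. For Mir150 it held the 3p form alone, so the seed of a 5p form of Mir150 was not compared. Counts do not separate the arms, so for no gene, Mir150 included, is it known which form was counted.
mmu-miR-146a-5p: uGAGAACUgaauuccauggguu
mmu-miR-146b-5p: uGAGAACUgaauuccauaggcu
mmu-miR-142a-5p: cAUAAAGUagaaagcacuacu
mmu-miR-142a-3p: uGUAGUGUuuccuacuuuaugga
mmu-miR-155-5p: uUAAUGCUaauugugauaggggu
mmu-miR-223-3p: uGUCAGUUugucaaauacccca
mmu-miR-342-3p: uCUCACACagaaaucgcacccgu
mmu-miR-150-3p: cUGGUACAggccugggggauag
The 5p forms of Mir146 and Mir146b shared the seed GAGAACU. Among these 13 forms, no other had a seed in common with another mouse microRNA in the table. Counted from 1 at the 5′ end of miR-146a-5p, the pair differed by G18A and U21C and was identical over the first 17 of 22 bases.

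Depth was 4111167 counts in replicate 1 and 3189903 in replicate 2, summed over all microRNA genes on their own strand. CPM (counts per 1000000) below is a gene's count scaled to that sum. Detection required 10 counts or more in both libraries, which 406 of 2202 genes (18.4%) reached. Markers of the labelled tissue were present: the neuronal microRNAs Mir128-1 and Mir137 stood at 14152 ± 150 CPM and 9846 ± 908 CPM (SD, n = 2). Counts do not separate the arms of a hairpin, and reads that matched several genomic positions, 39.1% and 41.4% of all reads in replicates 1 and 2, were given to no gene. Intervals on single libraries are exact 95% intervals and cover counting error only, since without molecular identifiers a read is not an independent molecule.

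Of the 7 genes 6 were detected, and mean levels differed 3052-fold between Mir342, the highest, and Mir146b, the lowest. The summed counts of the 7 genes made up 0.774% of the counts in replicate 1 (Clopper-Pearson interval 0.765 to 0.782%) and 1.00% in replicate 2 (0.994 to 1.02%). Mir342 alone held 75.2% of that sum in replicate 1 (74.8 to 75.7%) and 79.5% in replicate 2 (79.0 to 79.9%). The other 6 genes held 0.192% of all counts in replicate 1 (0.187 to 0.196%) and 0.206% in replicate 2 (0.201 to 0.211%). The list as named was thus mostly a measure of Mir342, and without it the sum was 1990 ± 104 CPM (SD, n = 2). That sum was in turn mostly Mir146 and Mir150 (89.1% of it in replicate 1, 91.6% in replicate 2). Mir142, found throughout the blood cell lineages, held 5.96% and 3.19% of it. Whether the sum follows the number of leukocytes was not tested. In bulk tissue, fewer cells of a type and less RNA per cell cannot be told apart.

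**Figure D1:**
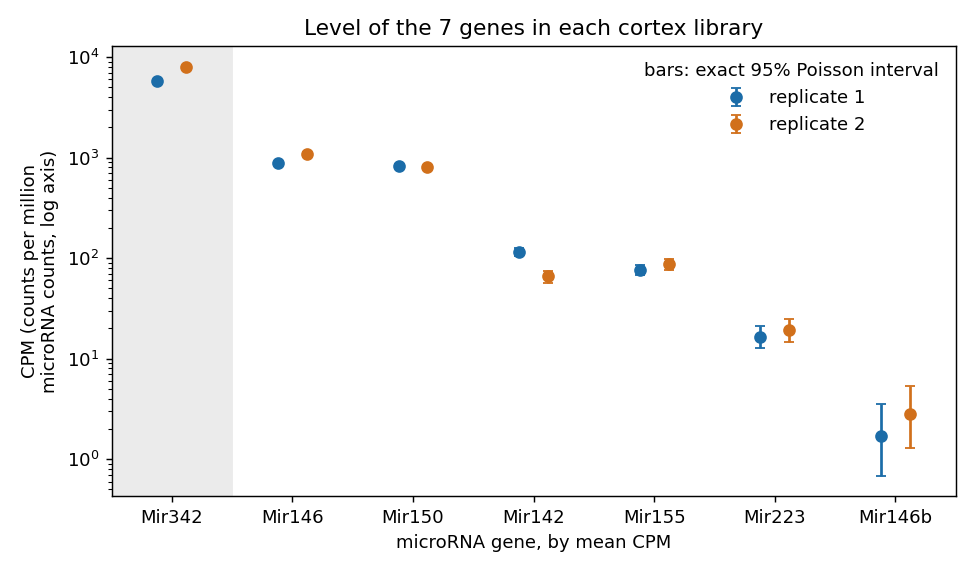
Level of each gene in CPM (log axis) in replicate 1 and replicate 2, with exact 95% Poisson intervals as bars and Mir342 shaded. The 2 points of Mir342 lie between 5821 and 7986 CPM, Mir146 and Mir150 lie near each other, Mir142 lies above Mir155 in replicate 1 and below it in replicate 2, and Mir146b lies below 3 CPM.

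Mir342 (ENSMUSG00000065436.1) lies on the plus strand of mm10 chromosome 12, 108658620 to 108658718, in intron 3 of the longest Evl transcript that spans it. It had 23931 counts in replicate 1 and 25474 in replicate 2, or 5821 and 7986 CPM. It ranked 33rd and 28th of all microRNA genes in the 2 libraries. Its exact Poisson intervals, 5747 to 5895 CPM and 7888 to 8085 CPM, did not overlap, so the libraries differed by more than counting error. Mir342 exceeded Mir146, the next member, 6.61-fold in replicate 1 and 7.32-fold in replicate 2.

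Mir146 (ENSMUSG00000065601.1), the gene of miR-146a, lies on the minus strand of chromosome 11, 43374397 to 43374461, and overlaps no other gene in the annotation. It had 3621 and 3478 counts in replicates 1 and 2, or 881 and 1090 CPM. Mir146b (ENSMUSG00000070127.2) lies on the plus strand of chromosome 19, 46342762 to 46342870, in an intron of Mfsd13a. It had 7 and 9 counts, or 1.70 CPM (0.685 to 3.51) in replicate 1 and 2.82 CPM (1.29 to 5.36) in replicate 2. Of the 2 genes that carry the seed GAGAACU, Mir146 therefore supplied nearly all counts, with both arms counted together. It had 517 times the counts of Mir146b in replicate 1 (interval 251 to 1288) and 386 times in replicate 2 (203 to 846). The hairpins of the pair share a stretch of 21 bases, and a read of only the first 17 bases of either 5p form matches both. Such reads would go to neither gene, so both counts are uncertain. Each of the other 5 members shared at most 13 bases with any microRNA hairpin that does not overlap it.

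Mir150 (ENSMUSG00000065495.1) lies on the plus strand of chromosome 7, 45121757 to 45121821, outside any other annotated gene. It had 3400 counts in replicate 1 and 2548 in replicate 2, or 827 and 799 CPM, the closest agreement between the libraries among the 6 detected members. The intervals, 799 to 855 CPM and 768 to 830 CPM, overlapped. Mir146 and Mir150 together made up 89.1% of the counts of the 6 genes in replicate 1 and 91.6% in replicate 2. The ratio of Mir146 to Mir150 was 1.07 in replicate 1 (1.02 to 1.12) and 1.36 in replicate 2 (1.30 to 1.44).

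Mir142 (ENSMUSG00000105196.1) lies on the plus strand of chromosome 11, 87756864 to 87756927, in the single intron of the non-coding Mir142hg. It had 470 counts in replicate 1 and 210 in replicate 2, or 114 CPM (104 to 125) and 65.8 CPM (57.2 to 75.4). It was the member with the widest relative gap between the libraries among the 6 detected, and its intervals did not overlap. A second gene, Mir142b (ENSMUSG00000065420.2), is annotated on the minus strand from 87756841 to 87756955 and covers Mir142 entirely. The 2 hairpins are shown 5′ to 3′ on their own strands, with annotated mature forms in capitals, because the counts at this locus depend on strand.
Mir142: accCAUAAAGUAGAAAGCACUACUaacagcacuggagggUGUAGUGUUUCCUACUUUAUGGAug
Mir142b: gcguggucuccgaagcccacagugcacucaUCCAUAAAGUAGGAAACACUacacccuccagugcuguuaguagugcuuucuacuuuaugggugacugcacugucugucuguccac
All 20 bases of miR-142b are complementary to a stretch of the 23-base miR-142a-3p. Every read counted at this locus was on the strand of Mir142: Mir142b had 0 counts on its own strand in each replicate, and a count of 0 leaves room for a level of up to 0.730 CPM at the depth of replicate 1 and 0.940 CPM at that of replicate 2. With strand ignored, both genes were listed at 0 counts.

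**Figure D2:**
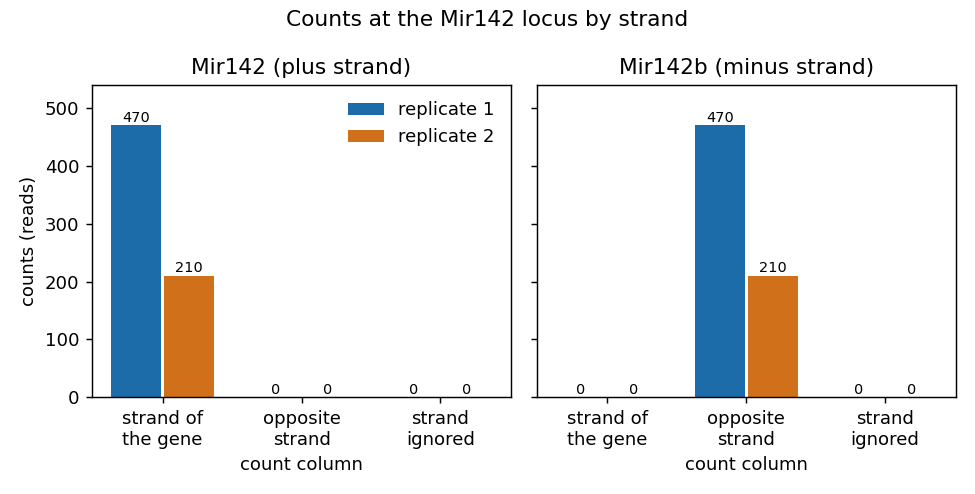
Counts (reads) at Mir142 on the plus strand and Mir142b on the minus strand, in the 3 deposited count columns, for replicates 1 and 2. The 470 and 210 reads appear on the strand of Mir142, reappear as opposite-strand reads of Mir142b, and are absent where strand is ignored.

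Mir155 (ENSMUSG00000065397.1) lies on the plus strand of chromosome 16, 84714140 to 84714204, in exon 2 of the non-coding Mir155hg. It had 314 counts in replicate 1 and 276 in replicate 2, or 76.4 CPM (68.2 to 85.3) and 86.5 CPM (76.6 to 97.4). Mir223 (ENSMUSG00000076066.1) lies on the plus strand of chromosome X, 96242817 to 96242926, within exon 2 of F630028O10Rik, a non-coding gene. It had 68 and 61 counts, or 16.5 CPM (12.84 to 20.97) and 19.1 CPM (14.63 to 24.56). For both genes the intervals of the libraries overlapped. Reads on the strand opposite to a member came to 1 in all, at Mir150 in replicate 2.

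By mean CPM the order was Mir342 (6903 ± 1531), Mir146 (986 ± 148), Mir150 (813 ± 20.0), Mir142 (90.1 ± 34.3), Mir155 (81.5 ± 7.17), Mir223 (17.8 ± 1.83) and Mir146b (2.26 ± 0.791; all SD, n = 2). Of the 6 neighbouring pairs in this order, 5 kept their order in both libraries with no overlap of the CPM values. The exception was Mir142 and Mir155: the count ratio of Mir155 to Mir142 was 0.668 in replicate 1 (0.577 to 0.772) and 1.31 in replicate 2 (1.09 to 1.58). Mature forms are of near equal length, so CPM is not divided by length here. Per hairpin base, which sets Mir342 at 58.8 and 80.7 CPM per base against 13.6 and 16.8 for Mir146, the same 5 pairs kept their order. Library preparation that favours some sequences can also affect an order between genes; this was not tested.

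Among all microRNA genes the members were widely spread. Mir342 ranked 30th by mean CPM, Mir146 107th, Mir150 117th, Mir142 217th, Mir155 220th and Mir223 293rd, while Mir146b, which was not detected, ranked 460th. The endothelial microRNA Mir126a stood at 11812 ± 1929 CPM and the smooth muscle and pericyte microRNA Mir143 at 4928 ± 124 CPM (SD, n = 2), both above the sum of the 6 genes. Mir145a, the other gene of the smooth muscle and pericyte list, stood at 218 ± 23.1 CPM, below that sum. The oligodendrocyte genes Mir219a-2 and Mir338 together came to 2688 ± 236 CPM, above the sum of the 6 genes in both libraries. Singly, Mir219a-2 (1531 ± 128 CPM) and Mir338 (1157 ± 107 CPM) each lay below the sum of the 6 genes.

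**Figure D3:**
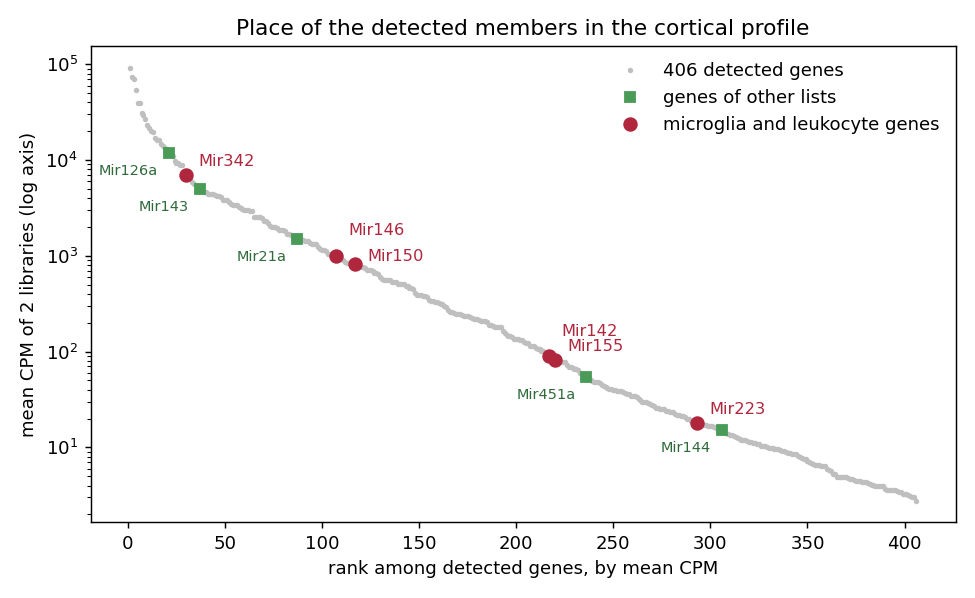
Mean CPM of 2 libraries (log axis) against rank for the 406 detected microRNA genes, with the 6 detected members as red circles and 5 genes of other lists as green squares. Mir342 stands at rank 30, Mir146 and Mir150 at 107 and 117, and Mir142, Mir155 and Mir223 below rank 200.

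Between the libraries, 3 of the 6 detected members differed by the exact binomial test of read sampling, with Benjamini-Hochberg adjustment over 406 genes, and they did not move one way. In either direction 58.1% of all detected genes passed this test, 23.4% higher and 34.7% lower in replicate 2, so a share of 3 in 6 is near the background. The test compares 2 libraries and no conditions. Mir342 was higher in replicate 2, with a log2 ratio of replicate 2 over replicate 1 of 0.46 (adjusted p = 8.50e-269, exact binomial test). Mir146 was higher as well, at 0.31 (adjusted p = 1.22e-18, exact binomial test). Mir142 was lower in replicate 2, at -0.80 (adjusted p = 2.74e-11, exact binomial test).

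The other 3 detected members did not pass. Mir155 had a log2 ratio of 0.18 (adjusted p = 0.197), Mir223 of 0.21 (adjusted p = 0.521) and Mir150 of -0.05 (adjusted p = 0.263), all by the exact binomial test; that of Mir150 was 0.03 with both other scalings tried. Mir146b was too low to be tested. An absolute log2 ratio larger than that of Mir142 was found in 15.8% of the 406 genes, larger than that of Mir342 in 36.7% and larger than that of Mir150 in 92.1%. The median absolute log2 ratio was 0.26 over the 6 members and 0.30 over the 406 genes. With DESeq2 size factors the 3 member calls were the same, beside 54.2% of all detected genes. The split over all genes was then 112 higher (27.6%) and 108 lower (26.6%) in replicate 2, against 95 and 141 with library totals.

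**Figure D4:**
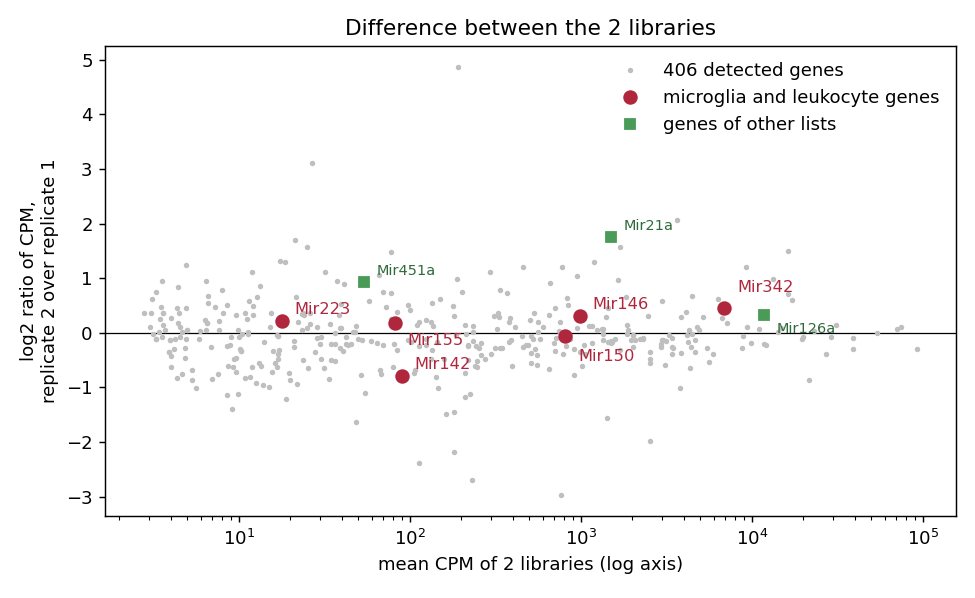
Log2 ratio of CPM, replicate 2 over replicate 1, against mean CPM (log axis) for 406 detected genes, with 6 members as red circles and 3 genes of other lists as green squares. Mir342 and Mir146 lie above 0, Mir142 lies at -0.80, and the other members lie within 0.21 of 0.

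The make-up of the 6 genes other than Mir342 differed between the libraries. Mir146 held 46.0% of their summed counts in replicate 1 and 52.8% in replicate 2. Mir150 held 43.1% and 38.7%, Mir142 held 5.96% and 3.19%, and Mir155 held 3.98% and 4.19% in the same order of libraries. Mir223 held 0.863% and 0.927%, and Mir146b under 1% in each.

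**Figure D5:**
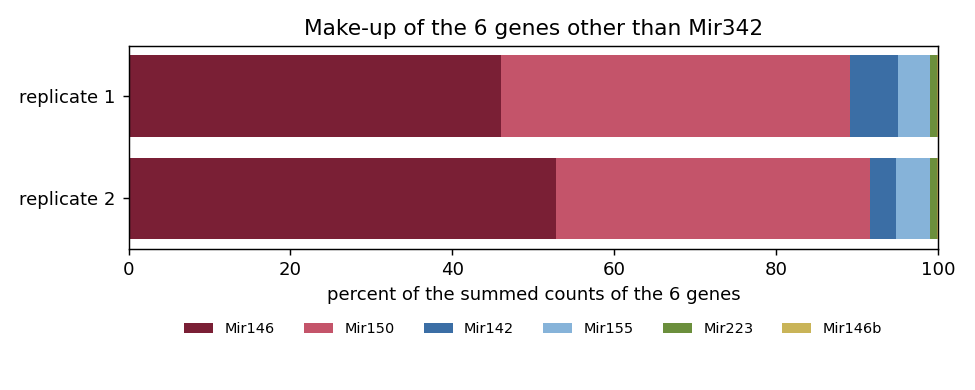
Percent of the summed counts of the 6 genes other than Mir342 held by each gene, for replicate 1 (7880 counts) and replicate 2 (6582 counts). Mir146 and Mir150 fill 89.1% and 91.6% of the bars, and the Mir142 segment is narrower in replicate 2.

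Among microRNAs of red blood cells, which would come with blood left in the tissue, Mir451a was higher in replicate 2, where Mir142 was lower. Of the listed erythroid genes, Mir486a and Mir486b had no match by symbol and were not examined. The other 3 matched the annotation and 2 of them were detected. Their sum was 51.6 and 86.2 CPM in replicates 1 and 2. Mir451a, the most abundant microRNA of red blood cells, had 152 and 225 counts, or 37.0 and 70.5 CPM, while Mir451b was at 0 in both libraries. Mir144 from the same cluster had 14.6 and 15.7 CPM, a log2 ratio of 0.10 that did not pass (adjusted p = 0.777, exact binomial test). Mir451a had a log2 ratio of 0.93 (adjusted p = 1.53e-09, exact binomial test), the sign of Mir342 and Mir146 and opposite to that of Mir142. The count ratio of Mir451a to Mir142 was thus 0.323 in replicate 1 (0.268 to 0.389) and 1.07 in replicate 2 (0.884 to 1.30). Against Mir223 it was 2.24 (1.67 to 3.02) and 3.69 (2.77 to 4.98). The part that blood left in the tissue had in the member levels was not tested.

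Other immune-associated microRNAs outside the 7 genes were either low or unequal between the libraries. Mir511, in an intron of the macrophage mannose receptor gene Mrc1, had 12 and 7 counts, or 2.92 and 2.19 CPM. Mir147, which is induced by Toll-like receptor signals in macrophages, had 6 and 8 counts, or 1.46 and 2.51 CPM. Neither reached the minimum for detection in both libraries. Mir21a, which is raised in inflammation but present in many cell types, had 687 and 2314 CPM in replicates 1 and 2, a log2 ratio of 1.75, larger in size than that of any of the 6 detected members.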

How the data were processed

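Small RNA libraries of left cerebral cortex (1 group, replicates 1 and 2) were analysed. The authors deposited raw, unnormalized counts of reads for each microRNA gene: 3 count columns (strand ignored, strand of the gene, opposite strand) after 4 leading rows that name no gene. Per the descriptions deposited beside the files, assembly and annotation are mm10 and GENCODE M21; no aligner or counter is named (not given in the sources used here). All 2202 IDs matched M21. Own-strand counts were divided by their sum over genes, which was 36.6% and 36.4% of the reads of replicates 1 and 2; the rest, in rows without a gene, was left out.

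Each gene with at least 10 counts in each library was tested with a two-sided exact binomial test against the split of library totals (SciPy 1.17.1), Benjamini-Hochberg adjusted over 406 genes, threshold 0.05. It allows for read sampling only. Over 2 samples, an exact sign-flip test cannot give a two-sided p below 0.5, so none was run. The procedure was tested on simulated counts that varied by read sampling only, so its error rate under wider variation between libraries was not tested. Alternatives were the strand-ignored counts, minima of 1 and 50 counts, edgeR 4.0.16 TMM and DESeq2 1.42.0 scaling from the detected genes, a threshold of 0.01, other totals, hairpin length, shorter shared stretches (16 and 17 bases in place of 18), and leaving out each library or the leading member. Named are the members, genes overlapping them or sharing a seed, the other lists, and neighbours in rank. The members, lists and tests were chosen with earlier results of these data known. Sequences are from RefSeq GRCm38.p6: of the 7 genes, 6 matched with a hairpin and all 7 with at least 1 mature form. No values of other samples were in the files.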

Additional observations from a re-analysis of the deposited data

How the results depend on the processing

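Under alternatives that keep both libraries the main results gave 22 values. Of these, 17 stayed within the tolerance (1 SD for shares, 1.5 times for counts) while 5 did not. Among the 17, the 16- and 17-base stretches could not differ, since the miR-146 pair shares 21 bases and the other members at most 13. The tolerance also passed the loss of Mir142 with strand ignored, where 5 in place of 6 members were detected and 2 in place of 3 differed. The order there still scored 5 pairs with Mir142 at 0 counts. As a share of all reads, the 7 genes held 0.325% and the 6 without Mir342 held 0.0727%. Without their leading member the lists held 0.200% (without Mir342) and 0.101% (the 6 without Mir146), and with Mir139 left out of the total the 6 held 0.219%; these moves follow from the totals and genes removed. The 6 tested members kept their side of the threshold in all 35 values of their log2 ratios under alternatives. Mir155 came close to it, at a log2 ratio of 0.26 (adjusted p = 0.0544 with TMM, 0.0547 with DESeq2 scaling, exact binomial test). With strand ignored Mir142 had no counts and could not be tested, so 5 members were detected. Of these, 2 differed, beside 216 of all 381 genes tested with strand ignored. Mir219a-2, Mir338 and Mir451a, which a microRNA gene also overlaps on the opposite strand, likewise had 0 counts with strand ignored. Mir126a, overlapped by Mir126b on the opposite strand, had 3 and 0 counts in replicates 1 and 2 with strand ignored. On its own strand it had 42956 and 42031. Leaving out a replicate gave 0.774 to 1.00% for the 7 genes, 0.192 to 0.206% for the 6, 75.2 to 79.5% for the part of Mir342, 6 detected members and 5 to 6 ordered pairs; with 2 libraries these shares cannot move by more than their SD. Depth limits Mir146b and Mir223 most. No paired analysis was possible because there was 1 group.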

Other observations

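The detected genes nearest to each member in mean CPM, over 2 libraries of 1 tissue, were as follows; nearness in level says nothing of shared function or control. Mir342 lay between Mir151 (7145 ± 640 CPM) and Mir411 (6689 ± 866 CPM; SD, n = 2), Mir146 between Mir497 (993 ± 172 CPM) and Mir195a (951 ± 465 CPM), and Mir150 between Mir490 (814 ± 94.0 CPM) and Mir467d (784 ± 146 CPM). Mir142 lay between Mir345 (97.8 ± 6.57 CPM) and Mir1198 (84.3 ± 15.6 CPM), and Mir155 between Mir218-2 (83.9 ± 12.7 CPM) and Mir542 (81.0 ± 8.20 CPM). Mir223 lay between Mir106a (17.9 ± 2.22 CPM) and Mir3083 (17.4 ± 10.5 CPM).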
